A study of Drosophila melanogaster with 6 samples.

Results

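A set of 9 Notch pathway genes was followed in DamID-seq data from medulla neuroblasts, the stem cells of the *Drosophila* optic lobe. They were chosen by name out of 18164 annotated genes. The first 4, *Su(H)*, *H*, *mam* and *gro*, encode proteins that act on Notch target genes in the nucleus and are called the nuclear complex here. The other 5, *neur*, *bib*, *wry*, *kuz* and *mib1*, encode ligands or proteins that act on the ligands or the receptor at the membrane and are called modulators. Each gene was assigned the peaks within 1000 bp of its annotated coordinates on the dm6 genome.

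DamID-seq uses fusions to the bacterial methylase Dam, which mark GATC sites close to where the fusion protein sits on DNA, and the fragments so marked are sequenced. There were 3 groups of 2 libraries each, namely Dam alone, Ey-Dam (Ey is Eyeless, a Pax6 transcription factor of the medulla) and Su(H)-Dam. The larvae of every group, the Dam control included, carried UAS-Dcr2, the temperature-sensitive repressor tubG80ts over the CyO balancer, and a *SoxN*-Gal4 driver over the UAS transgene of that group. In all groups, eggs from a window of 8 h at 25 °C were held at 18 °C for 3 days, and expression was then induced for 72 h at 29 °C. Optic lobes were dissected from climbing larvae of the third instar, and about 100 brains were pooled for each sample. The marks come from the cells in which the driver is active, and the driver was described as active in all medulla neuroblasts, so neuroblasts of different ages are averaged. The factors carry a methylase and are expressed from transgenes, and a peak measures methylation over the Dam control, not the expression of the gene beside it. Because expression was not measured, the labelled cell type was not checked against marker genes. The pairing of Dam-only libraries with fusion libraries is not given in the sources used here, so the Ey and Su(H) lists may share their controls.

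The Notch receptor is activated by ligands on neighbouring cells. Ubiquitin ligases such as Neuralized and Mind bomb 1 drive the endocytosis of the ligands, the metalloprotease Kuzbanian makes the cut of the receptor that precedes release of its intracellular domain, and that domain enters the nucleus. There it meets Suppressor of Hairless, Su(H), which binds DNA, and Mastermind, a coactivator. Without the intracellular domain, Su(H) is held by Hairless, an adaptor that recruits the corepressors Groucho and CtBP. In the medulla the pathway is known for separating the fates of sibling neurons.

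In all, 6 lists of peaks were used. The 4 replicate lists hold peaks at a false discovery rate (FDR) under 0.01, with 1470 (replicate 1) and 1509 (replicate 2) peaks of Ey-Dam. The Su(H)-Dam lists hold 1455 and 1461. The peak score, based on the log2 ratio over Dam alone, had a median of 5.14 in replicate 1 and 4.42 in replicate 2 of Ey-Dam. The medians for Su(H)-Dam were 3.22 and 2.96. Scores of different lists are not on a shared scale, so each is given with the percentage of peaks of its own list that scored lower. The lists of reproducible peaks, 984 for Ey and 972 for Su(H), were made from peaks found at a looser FDR of 0.1 that passed an irreproducible discovery rate (IDR) of 0.05. A peak can therefore be reproducible without reaching an FDR of 0.01 in each replicate, and the reverse. With 2 replicates against 2, an exact permutation test (two-sided) cannot give a p below 0.333, so no test is reported and each replicate is shown. All peaks begin and end at GATC sites, which limits the resolution to a GATC fragment.

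Reproducible peaks of both factors were found within 1000 bp of *neur* and *bib*, both modulators, and of no gene of the nuclear complex. Such peaks of both lay at 3.33% of all genes, so their lack at the 4 nuclear complex genes is near the background. Reproducible Ey peaks lay at 3 of the 5 modulators (*neur*, *bib* and *wry*) and at 0 of the 4 nuclear complex genes, where 5.54% of all annotated genes had one. Reproducible Su(H) peaks lay at *neur* and *bib* and at *gro* of the nuclear complex, 3 of 9 members, beside 5.46% of all genes. Reproducible peaks of both factors were found at 2 of 9 members and at 3.33% of all genes. In the replicate lists, Ey peaks were found in both replicates at *neur* and *wry* (2 of 9, all genes 6.3%). Su(H) peaks were found in both replicates at *Su(H)*, *mam*, *gro*, *neur* and *bib* (5 of 9, all genes 6.8%). Of the 4 nuclear complex genes 3, *Su(H)*, *mam* and *gro*, thus had Su(H) peaks in both replicates and no Ey peak at an FDR under 0.01 within 1000 bp. This was the pattern of 1.5% of all genes and of 0 of the 5 modulators. As described below, the peaks at *Su(H)* coincide with coding sequence that the transgene carries. The peak at *gro* also covers *E(spl)m8-HLH* and overlaps a reproducible Ey peak that ends 1235 bp from *gro*. The opposite pattern, Ey peaks in both replicates and no Su(H) peak, was found at *wry*, and at 1.09% of all genes. *H*, *kuz* and *mib1* had no peak in any of the 6 lists, as did 87.1% of all genes. The members were chosen by name and are few, and the difference between their classes was not tested.

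**Figure D1:**
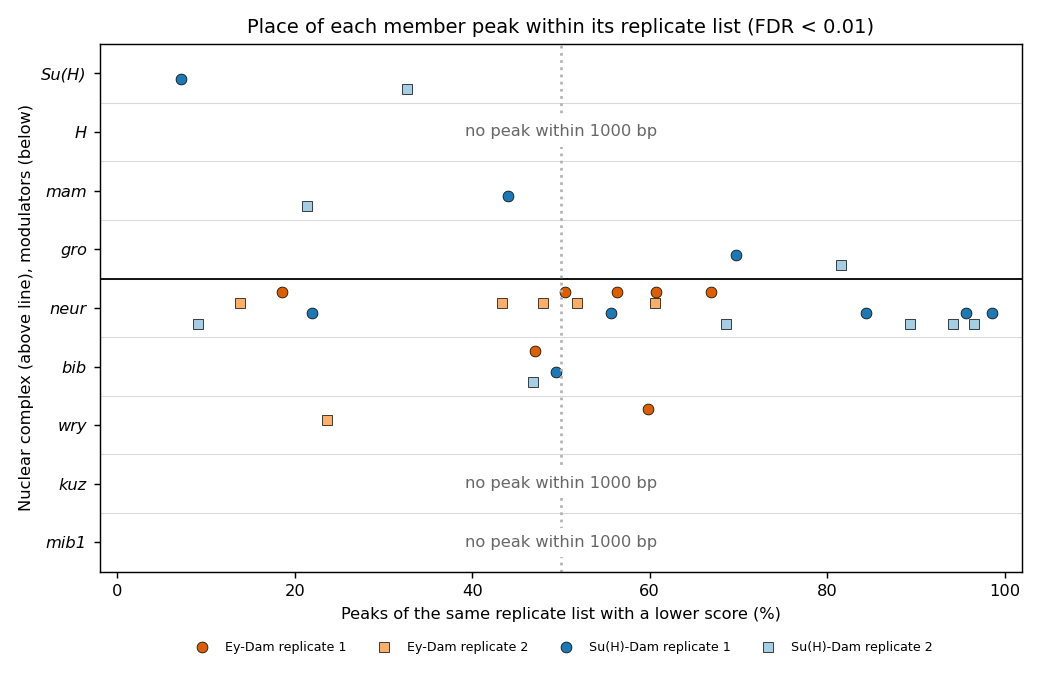
Percentage of peaks in the same replicate list that scored lower (horizontal axis) for every peak within 1000 bp of each member gene (rows), with 1 point per peak, circles for replicate 1, squares for replicate 2, orange for Ey-Dam and blue for Su(H)-Dam. The nuclear complex rows above the line hold Su(H)-Dam points alone, *neur* holds points of all 4 lists with 3 Su(H)-Dam peaks per replicate above 84%, and *H*, *kuz* and *mib1* hold none.

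Before the genes are described one by one, the matches to the Su(H) consensus in their peaks are shown, because they are the sequences that the DNA-binding member of the complex is known to recognise. The textbook consensus was searched on both strands as CGTGGGAA, CGTGAGAA, TGTGGGAA and TGTGAGAA, which do not overlap each other. There were 12 distinct matches in the peaks of the members, 8 at *neur*, 3 at *gro* and 1 at *bib*. The peaks at *Su(H)*, *mam* and *wry* held 0. A match is a string of letters in a peak and was not shown here to be bound. All 12 are printed from the Release 6 reference (dm6), each on the forward strand with 30 bases on either side and the match in capitals, so that a match on the reverse strand reads TTCCCACG, TTCCCACA or TTCTCACA.

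The windows at *neur* follow from the 3′ to the 5′ end of the gene, which is on the reverse strand. They lie in introns or, for the first, over an antisense RNA gene, and none overlaps an annotated UTR or coding sequence.
*neur* window 1, chr3R:9023977-9024044: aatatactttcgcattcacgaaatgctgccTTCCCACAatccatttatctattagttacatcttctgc
*neur* window 2, chr3R:9026426-9026544: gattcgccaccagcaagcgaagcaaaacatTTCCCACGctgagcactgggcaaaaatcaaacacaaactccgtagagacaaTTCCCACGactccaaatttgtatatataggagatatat
*neur* window 3, chr3R:9026998-9027065: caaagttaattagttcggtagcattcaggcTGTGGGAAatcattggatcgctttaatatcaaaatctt
*neur* window 4, chr3R:9027730-9027797: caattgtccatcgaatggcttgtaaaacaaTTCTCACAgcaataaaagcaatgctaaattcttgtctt
*neur* window 5, chr3R:9028566-9028633: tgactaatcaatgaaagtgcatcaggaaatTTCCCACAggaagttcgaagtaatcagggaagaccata
*neur* window 6, chr3R:9032835-9032902: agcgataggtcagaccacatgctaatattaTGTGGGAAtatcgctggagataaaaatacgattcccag
*neur* window 7, chr3R:9038153-9038220: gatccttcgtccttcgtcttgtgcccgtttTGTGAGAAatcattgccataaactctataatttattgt

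The windows upstream of *gro* and of *bib* lie between or outside coding sequences and UTRs.
*gro* window 1, chr3R:26039577-26039644: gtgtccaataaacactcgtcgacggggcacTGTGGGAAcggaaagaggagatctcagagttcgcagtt
*gro* window 2, chr3R:26039986-26040078: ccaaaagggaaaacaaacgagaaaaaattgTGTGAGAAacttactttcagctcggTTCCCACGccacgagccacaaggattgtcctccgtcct
*bib* window 1, chr2L:9983024-9983091: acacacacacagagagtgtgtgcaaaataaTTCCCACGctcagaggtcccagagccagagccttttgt

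A pair of matches is held by 2 of the windows. In *neur* window 2 both matches read in the same direction and begin 51 bp apart. In *gro* window 2 the matches read in opposite directions, towards each other, and begin 25 bp apart. Each pair lies in a single GATC fragment, of 222 bp at *neur* and of 416 bp at *gro*, so the peaks cannot separate the matches of a pair.

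*neur*, which encodes the ubiquitin ligase Neuralized, had the most peaks of the 9 genes and was the only member with peaks of both factors in all 6 lists. It lies on 3R from 9020348 to 9039471 on the reverse strand, with annotated transcript starts at 9039471 and 9033731. Ey-Dam had 5 peaks there in each replicate and Su(H)-Dam had 5 in each replicate, and 4 of each were reproducible. The Ey peaks covered 8786 and 9760 bp in replicates 1 and 2 and the Su(H) peaks 12104 and 11194 bp, each within a gene of 19124 bp. The same 6-list pattern, with a peak in every list, was shared by 521 other genes.

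Of the 5 Su(H) peaks at *neur*, 3 had 84.4% to 98.6% of their replicate list below them, and the other Su(H) peaks had 9.03% to 68.7%. By IDR score in the reproducible list, the same 3 had 36.9% to 53.6% of peaks below them. The reproducible Su(H) peak nearest the upstream start had 59.5% below it there. The Ey peaks had 13.9% to 66.9% of their list below them. The highest-scoring Su(H) peak ran from 9031808 to 9036340 in both replicates, over the downstream start, its 5′ UTR and 271 bp of coding sequence. It scored 4.52 in replicate 1 and 4.19 in replicate 2, with 98.6% and 96.6% of peaks lower. A second Su(H) peak, from 9023455 to 9026805 in replicate 1 and from 9023556 to 9026805 in replicate 2, scored 4.21 and 4.03 (95.7% and 94.2% lower) over an intron and the start of the following coding exon. The highest Ey scores were 5.51 in replicate 1 (66.9% lower), for the peak from 9023556 to 9026329, and 4.65 in replicate 2 (60.6% lower), for the peak from 9034296 to 9036340. The replicates therefore differed in which Ey peak scored highest, while the same Su(H) peak was highest in both.

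The small region from 9026892 to 9027463, of 572 bp and inside the intron, was a peak with the same ends in all 4 replicate lists. It scored 5.26 and 4.47 for Ey (56.3% and 51.8% lower) and 3.84 and 3.82 for Su(H) (84.4% and 89.4% lower). It holds *neur* window 3, and 5.77% of all regions of that length on the 6 chromosome arms hold a match. The adjoining region, from 9027531, was wider for Ey than for Su(H). The Ey peak reached 9030031 and scored 5.36 and 4.39 (60.7% and 48.0% lower), and it was reproducible. The Su(H) peak ended at 9029151, scored 2.71 and 2.18 (21.9% and 9.03% lower), and was not in the reproducible list.

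The peaks nearer the upstream start differed between the factors. Su(H)-Dam had a peak from 9036878 to 9038904 in replicate 1 (score 3.31, 55.7% lower) and from 9036878 to 9038095 in replicate 2 (score 3.30, 68.7% lower), which was reproducible and overlapped no Ey peak in any list. Its *neur* window 7 lay in the part found in replicate 1 alone. The neighbouring gene *hyx*, on the other strand, begins at 9038760. The replicate 1 peak and the reproducible peak cover that start, so the assignment to *neur* is not exclusive. Between 9031808 and 9036340 the single Su(H) peak spanned 2 separate Ey peaks. The one from 9034296 was reproducible, with scores of 5.15 and 4.65. The other, from 9031808 to 9032903 in replicate 1 and to 9033199 in replicate 2, scored 4.38 and 3.48 (18.6% and 13.9% lower) and was not reproducible. *neur* window 6 lay in this second one. The peak at the 3′ side overlapped the antisense RNA gene asRNA:CR31429 (9022057 to 9024018), as does *neur* window 1.

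**Figure D2:**
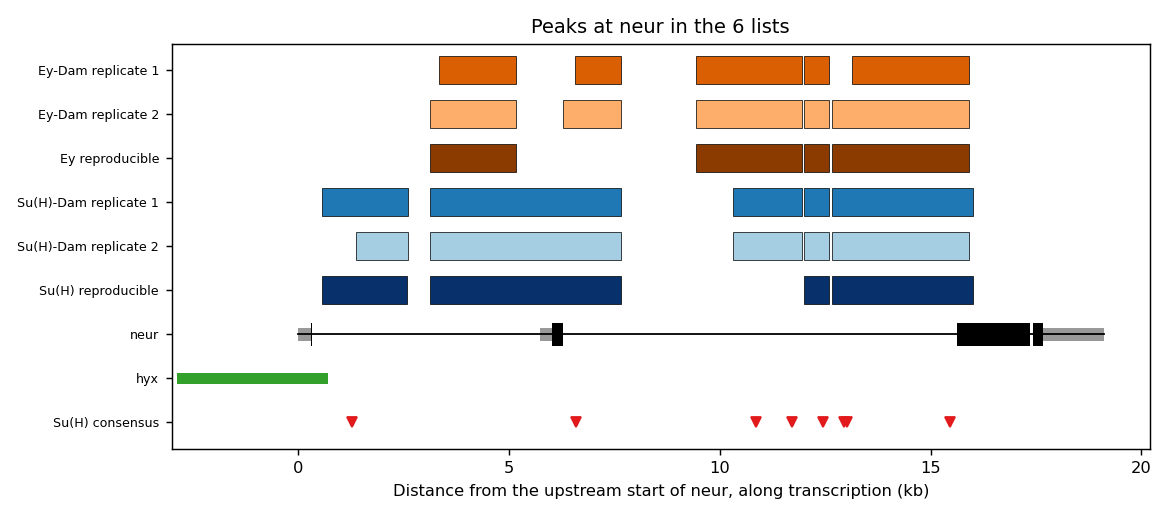
Peaks at *neur* in each of the 6 lists (rows), plotted by distance in kb from the upstream start along the direction of transcription, with coding exons in black, other exons in grey, the neighbour *hyx* in green and Su(H) consensus matches as red triangles. The Su(H) peaks reach from the first intron to the start of the last coding exons, and the Su(H) peak between 567 and 2593 bp has no Ey counterpart.

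By its places in the 4 replicate lists, the gene most like *neur* was *opa*, which encodes a zinc finger transcription factor of the medulla temporal series. Likeness was taken as the largest of the 4 differences in percentile, over 604 protein-coding genes with peaks in all 4 lists. The highest *opa* peaks stood above 70.4% and 62.0% of Ey peaks and 90.9% and 93.0% of Su(H) peaks, and the largest difference from *neur* was 7.70 percentage points.

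*bib* encodes Big brain, a membrane protein of the aquaporin family needed for Notch-dependent neurogenesis. It had reproducible peaks of both factors, and these rested on fewer replicates than those at *neur*. The gene lies on 2L from 9984645 to 9995538 on the forward strand. At its start, the reproducible Ey peak ran from 9981688 to 9985663, over the 5′ UTR and 197 bp of coding sequence. It was found at an FDR under 0.01 in Ey-Dam replicate 1, with a score of 5.08 (47.1% lower), and Ey-Dam replicate 2 had no peak within 1000 bp of the gene. The reproducible Su(H) peak at the start, from 9983820 to 9985663, was in neither Su(H)-Dam replicate list at that FDR. The overlap of the factors at the *bib* start thus rests on peaks that passed the looser FDR of 0.1.

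Downstream of *bib*, Su(H)-Dam had a peak from 9996162 to 9997469 in both replicates, with scores of 3.22 and 2.92 (49.5% and 46.9% lower), and it was reproducible. It lies 624 bp past the end of the gene, inside *CG31875* (9995561 to 10002736) and overlapping *SoYb* (9996706 to 10002736), so its assignment to *bib* is by distance alone. Ey-Dam peaks partly covered the same place but lay just beyond 1000 bp from *bib*. They began at 9996818 in replicate 1, at a distance of 1280 bp (score 4.19, 10.2% lower), and at 9996645 in replicate 2, at 1107 bp (score 4.08, 35.8% lower). With a distance of 5000 bp, *bib* had Ey peaks in both replicates. The 1 consensus match, in *bib* window 1, lay 1591 bp upstream of the start, in the part of the region held by the Ey peak and not by the Su(H) peak. The noncoding gene lncRNA:CR13130 (9983671 to 9984743) overlaps the start of *bib* on the other strand. The pattern of *bib* over the 6 lists was shared by 13 other genes.

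*wry*, which encodes Weary, described as a Notch ligand, had Ey peaks and no Su(H) peak. It lies on 2L from 1836538 to 1858550. The Ey peak had the same ends in both replicates, from 1852087 to 1854819, in the later part of the gene and over 458 bp of coding sequence and 2275 bp of introns. It scored 5.35 in replicate 1 (59.8% lower) and 3.70 in replicate 2 (23.7% lower), and it was reproducible. The nearest Su(H)-Dam peaks lay 94141 bp away in replicate 1 and 87137 bp away in replicate 2. The peak spans 5 GATC fragments and held no consensus match, where 24.9% of all regions of that length on the 6 arms hold one. The same pattern was found at 107 other genes.

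*gro* encodes Groucho, a corepressor, and was the only nuclear complex gene with a reproducible peak. It lies on 3R from 26041736 to 26049911. The Su(H) peak lay wholly outside the gene, upstream, and ran from 26039524 to 26041516 in replicate 1 and to 26041468 in replicate 2. It scored 3.57 in both replicates, with 69.7% and 81.5% of peaks lower, and ended 220 and 268 bp before the start of *gro*. It also covers the whole of *E(spl)m8-HLH* (26040240 to 26041008), a bHLH repressor gene and a classical Notch target, so the peak cannot be assigned to *gro* rather than to that gene. The 3 consensus matches of the peak lie 626, 217 and 192 bp upstream of *E(spl)m8-HLH*, and 18.8% of all regions of the length of the peak hold at least 1.

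Ey-Dam also had a peak in this region, which the distance of 1000 bp left out. It ran from 26039524 to 26040501 in replicate 1 (score 4.92, 40.1% lower) and from 26039499 to 26040501 in replicate 2 (score 4.79, 66.1% lower), and was reproducible. Its end lies 1235 bp from *gro*. Both *gro* windows lie inside it as well as inside the Su(H) peak. A distance of 5000 bp adds *gro* to the genes with reproducible peaks of both factors, which then number 3 of 9. The absence of Ey at *gro* within 1000 bp is therefore set by the distance. This does not hold for *Su(H)* and *mam*, whose nearest Ey peaks were 33190 bp away or farther.

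*mam*, which encodes the coactivator Mastermind, had a Su(H) peak in both replicates at its first transcript start. The gene lies on 2R from 13991203 to 14060356, with 3 annotated starts. The peak ran from 13990605 to 13992623 in replicate 1 and to 13992676 in replicate 2, and covered 417 bp of 5′ UTR and 1004 and 1057 bp of intron. It scored 3.12 (44.0% lower) and 2.42 (21.4% lower), below the median score of its list in both replicates, and was not in the reproducible list, whose nearest peak lay 253161 bp away. The nearest Ey-Dam peaks lay 33190 bp away in replicate 1 and 132049 bp away in replicate 2. The peak held no consensus match in either replicate.

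At *Su(H)* itself, Su(H)-Dam peaks were found in both replicates, and they coincide with the sequence carried by the transgene. The gene lies on 2L from 15039488 to 15043334. The peak ran from 15041413 to 15041813 in replicate 1, with a score of 2.40 (7.22% lower), and from 15041279 to 15042513 in replicate 2, with a score of 2.65 (32.6% lower). It was not in the reproducible list, and the nearest Ey-Dam peaks lay 220215 bp away in both replicates. The *UAS-Su(H)-Dam* transgene carries the coding sequence of *Su(H)*, which is absent from the Dam control. Of the 13 GATC fragments within 1000 bp of the gene, 7 were in a peak of either replicate. Of these, 6 are wholly coding and 1 is partly coding, and 0 are without coding sequence. The gene has 6 wholly coding fragments, of which 4 were in the peak of replicate 1. Partly coding fragments with 95, 290, 185 and 103 bp of coding sequence were in no peak of either replicate. The peaks were 100% and 90.0% coding sequence. Fragments from the gene and from the transgene cannot be told apart here. Without *Su(H)*, 4 of the other 8 members had Su(H) peaks in both replicates.

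**Figure D3:**
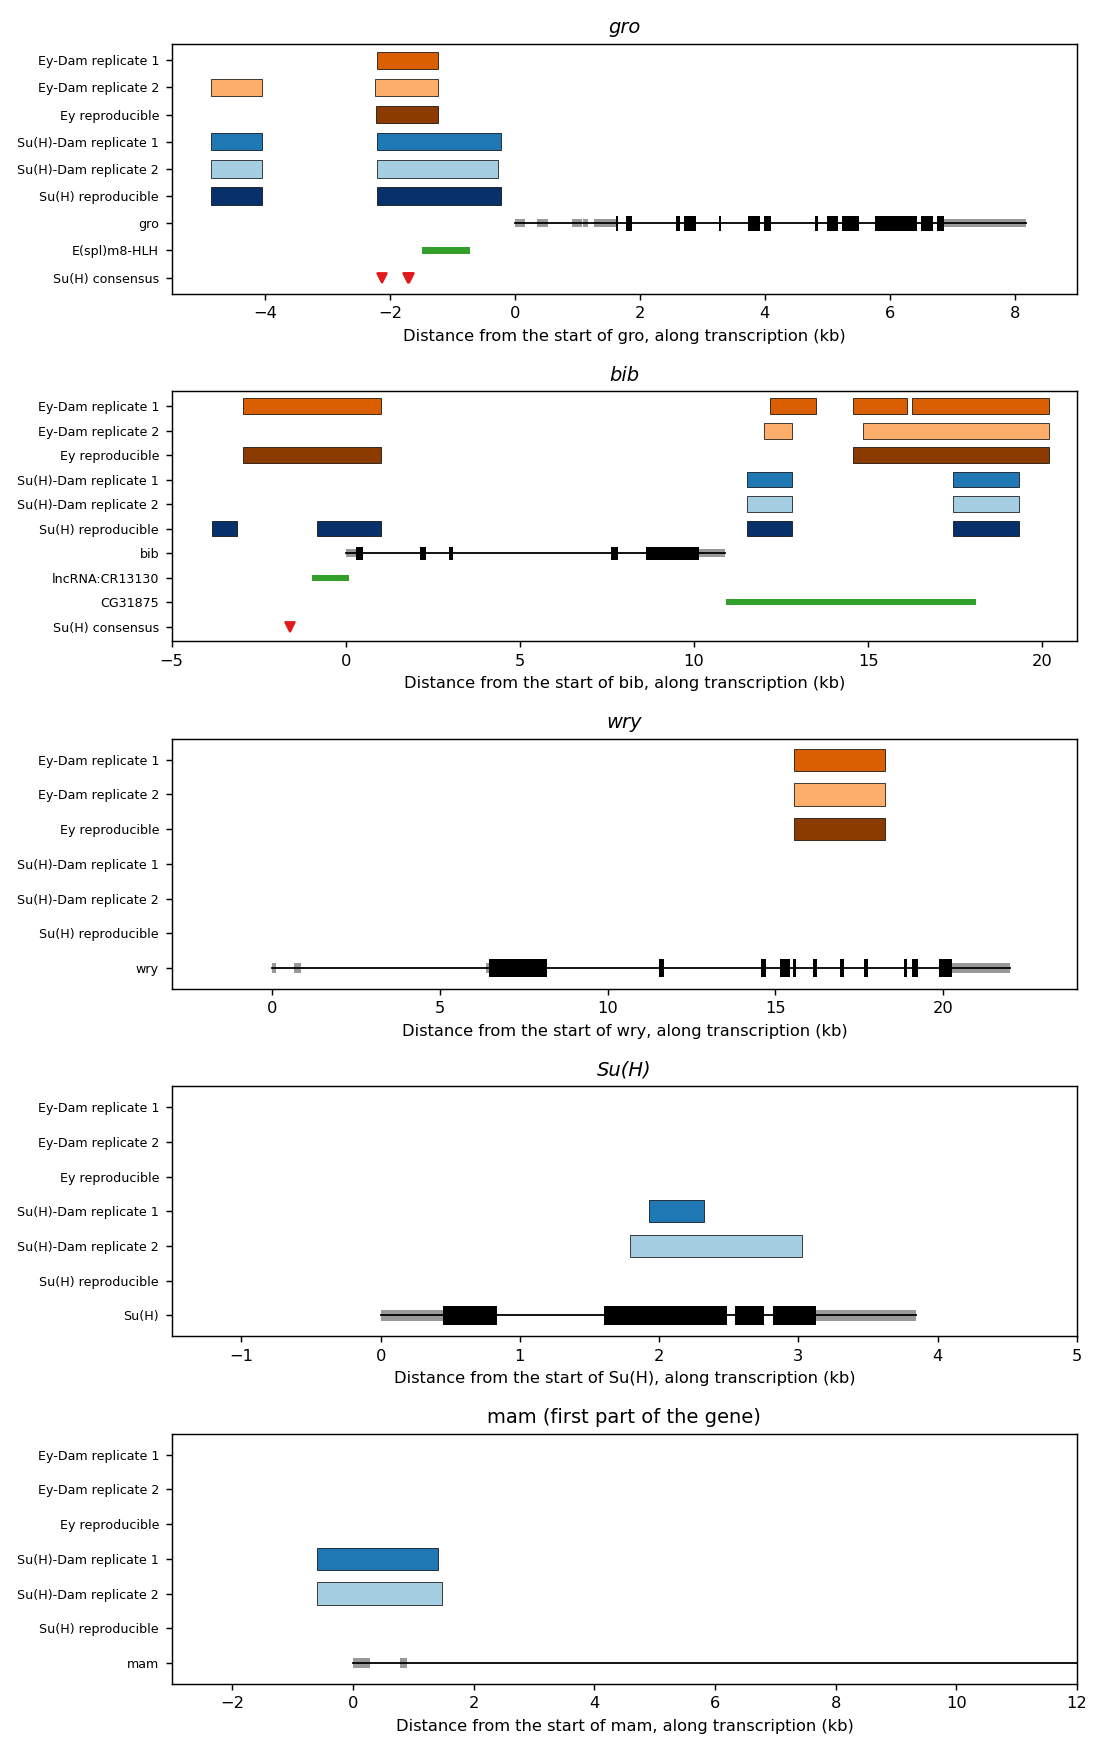
Peaks in each of the 6 lists (rows) at *gro*, *bib*, *wry*, *Su(H)* and *mam*, plotted by distance in kb from the gene start along transcription, with coding exons in black, other exons in grey, neighbouring genes in green and consensus matches in red. The Su(H) peak at *gro* lies upstream of the gene and over *E(spl)m8-HLH*, the *Su(H)* peaks lie over coding exons, and the *mam* peak covers the first start.

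*H*, *kuz* and *mib1* had no peak within 5000 bp in any list. At *H*, the gene of the adaptor Hairless (3R, 20621938 to 20628915), the nearest peaks were Su(H)-Dam peaks 27084 bp away in replicate 1 and 5770 bp away in replicate 2, and Ey-Dam peaks 53328 and 77827 bp away. At *kuz* (2L, 13550139 to 13639411), the gene of the Kuzbanian protease, the nearest peak lay 34115 bp away in all 6 lists. At *mib1* (3L, 16006552 to 16011812), the nearest peak of each replicate list lay 5793 bp away, where the Ey-Dam peaks scored 5.65 and 5.24 and the Su(H)-Dam peaks 2.72 and 2.89. There were 19 GATC sites within 1000 bp of *H*, 126 at *kuz* and 39 at *mib1*, and the median fragment was 174, 475 and 121 bp long. At *gro* and *neur*, which had peaks, it was 129 and 182 bp long. At *kuz*, the longest member, 1 fragment reached 6282 bp. The part of GATC spacing in the lack of peaks was not tested.

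**Figure D4:**
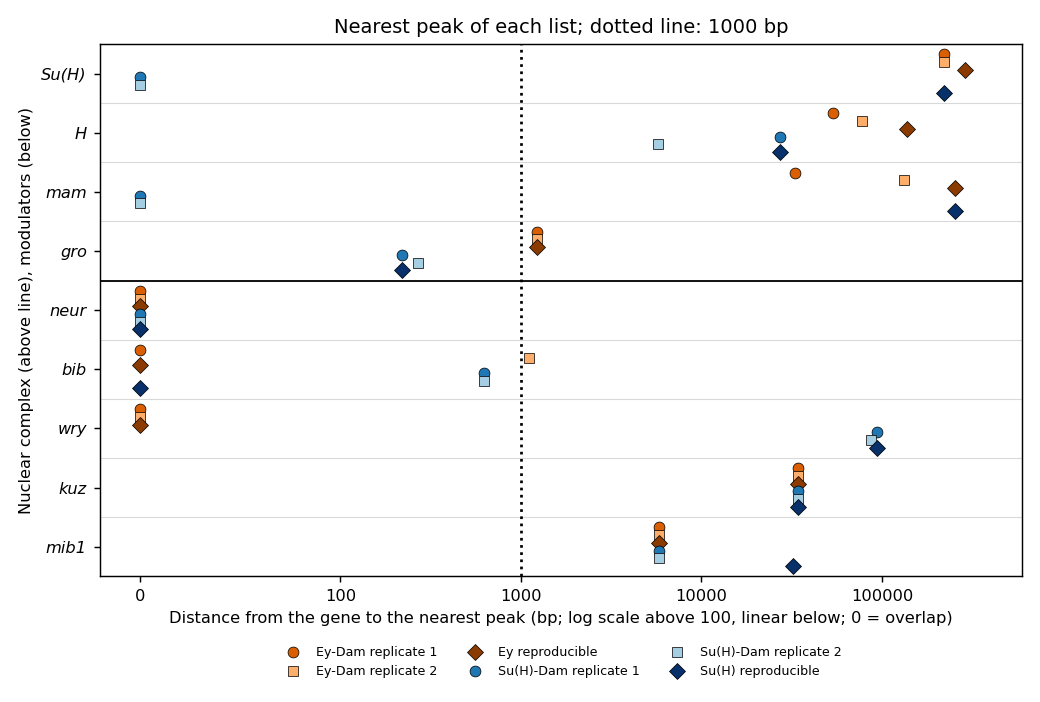
Distance in bp from each member gene (rows) to the nearest peak of each list, on an axis that is linear below 100 bp and logarithmic above it, with 0 for an overlap and a dotted line at 1000 bp. *gro* and *bib* have points on both sides of the dotted line, and *kuz* has its 6 points at 34115 bp.

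Gene length varies among the members, and longer genes more often had a peak within 1000 bp. Among protein-coding genes, 8.56% of those under 5 kb, 21.0% of those from 5 to 20 kb, 35.1% of those from 20 to 50 kb and 46.3% of those of 50 kb or more had a peak in at least 1 list. *Su(H)* is in the shortest class, *H*, *gro*, *neur*, *bib* and *mib1* in the next, *wry* in the third, and *mam* and *kuz* in the longest. Of the 307 protein-coding genes of 50 kb or more, 165 (53.7%) had no peak in any list, as *kuz* had none. In the class of *neur* and *bib*, 4.78% of genes had reproducible peaks of both factors. In the class of *wry*, 21.1% had a reproducible Ey peak. Su(H) peaks in both replicates were found at 30.9% of genes in the class of *mam*, 11.8% in that of *gro* and 4.03% in that of *Su(H)*. Each class of members holds a gene over 50 kb and shorter genes, and the part of length in the difference between the classes was not tested.

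Most of the reproducible peaks at the members overlapped one of the other factor, as did most peaks of the lists. An overlap of at least 1 bp was found for 4 of the 6 Ey peaks (66.7%, beside 61.0% of the whole list) and for 5 of the 7 Su(H) peaks (71.4%, beside 62.9% of the whole list). The Ey peaks without an overlap were the one at *wry* and the one from 9027532 to 9030031 in *neur*. The Su(H) peaks without one were the peak nearest the upstream start of *neur* and the one downstream of *bib*.

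Matches to the Su(H) consensus were denser in the member peaks than over all peaks, and *neur* and *gro* gave nearly all of them. The 7 reproducible Su(H) peaks held 9 matches in 15.6 kb, or 0.576 per kb, and 5 of the 7 held at least 1. Over all 972 reproducible Su(H) peaks the density was 0.238 per kb, with 32.2% of peaks holding a match, and over the 6 chromosome arms it was 0.106 per kb. The reproducible Ey peaks at the members held 7 matches, 0.464 per kb, beside 0.141 per kb over all Ey peaks. In the replicate lists the member densities were 0.387 and 0.560 per kb in the Ey-Dam lists and 0.617 and 0.563 per kb in the Su(H)-Dam lists. Of the 8 matches at *neur*, 7 lay in a peak of at least 1 list of each factor, and 2 of these in all 6 lists. The other 1 lay in Su(H) lists alone. The matches of *neur* windows 4 and 5 were in no reproducible Su(H) peak, and that of *neur* window 6 was in no reproducible Ey peak. The 3 matches at *gro* lie upstream of *E(spl)m8-HLH*, in the peak that cannot be assigned to *gro* rather than to that gene. Matches within a gene share its peaks and are not independent, and 3 of the 6 members with peaks held none in any list.

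**Figure D5:**
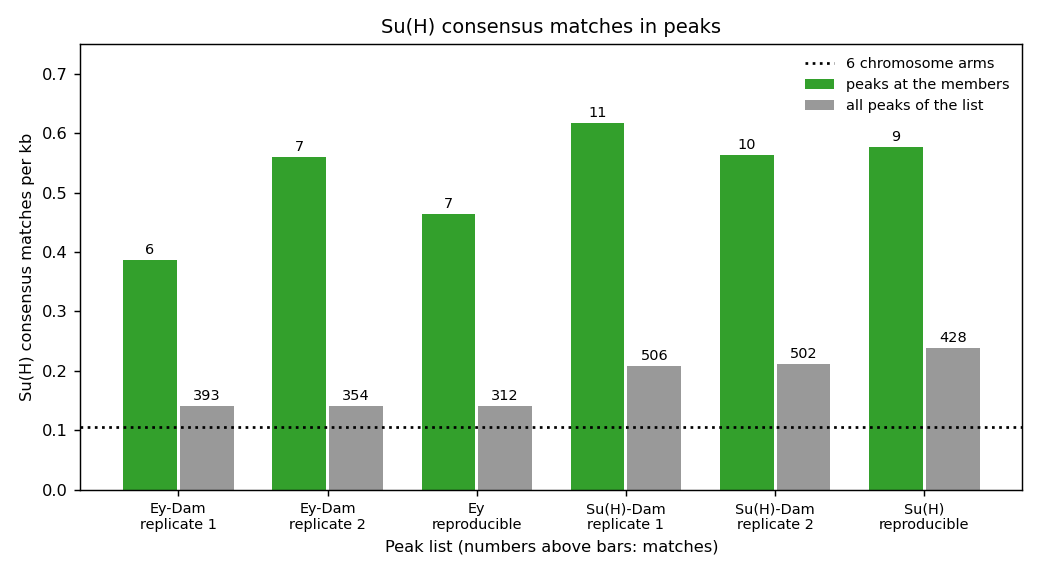
Su(H) consensus matches per kb (vertical axis) in the peaks at the members (green) and in all peaks (grey) of each list, with the number of matches above each bar and a dotted line for the 6 chromosome arms. The member bars stand between 0.387 and 0.617 per kb and the bars of all peaks between 0.140 and 0.238 per kb, with 6 to 11 matches behind each member bar. The 3 *gro* matches in each Su(H) member bar lie in the peak over *E(spl)m8-HLH*.

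Of 26 other genes of the pathway, 10 had a reproducible Ey peak, 7 a reproducible Su(H) peak and 7 both, and 0 had one of Su(H) alone. The shares over all annotated genes were 5.54% for Ey, 5.46% for Su(H) and 3.33% for both. The 26 genes were chosen with earlier results of these data known, so their counts are not an independent comparison with these shares. Of the 10 genes with peaks, all but *spdo* and *insv*, which are under 5 kb, are over 20 kb. Among protein-coding genes of 20 to 50 kb, 21.1% had a reproducible Ey peak, 17.6% one of Su(H) and 14.0% both. At 50 kb or more these shares were 27.4%, 26.4% and 21.5%, and under 5 kb the Ey share was 2.87%. The part of length in the counts of the 26 genes was not tested. The receptor gene *N* and the ligand genes *Delta* and *Ser* all had peaks of both factors. Of 3 genes of Notch glycosylation, *fng*, a glycosyltransferase gene, had both. None of the 5 proteolysis genes, which encode the γ-secretase subunits and the protease Tace, had a peak in any list. All 5 are shorter than 5 kb, a class in which 8.56% of protein-coding genes had a peak in at least 1 list, and 87.1% of all genes had none, so this count is near the background. Of 8 genes of trafficking, *numb*, an inhibitor of Notch signaling, had reproducible peaks of both factors, and *spdo*, a transmembrane partner of Notch, of Ey alone. At *spdo*, Su(H)-Dam peaks were nonetheless found in both replicates, with scores of 3.08 and 2.55.

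Among 7 genes of nuclear cofactors, 4 had a reproducible Ey peak, beside 5.54% of all genes. The 4 nuclear complex genes had 0 within 1000 bp and 1, *gro*, within 5000 bp, and the difference was not tested. The 2 groups also differ in length. Of the cofactor genes with an Ey peak, *nej*, *skd* and *Smr* are over 20 kb and *insv* is under 5 kb. In the nuclear complex *mam* is over 50 kb, and *Su(H)*, *H* and *gro* are under 20 kb. Reproducible Ey peaks lay at 2.87% of protein-coding genes under 5 kb and at 8.46% of those from 5 to 20 kb. They lay at 21.1% of those from 20 to 50 kb and at 27.4% of those of 50 kb or more. *skd*, which encodes a subunit of the Mediator kinase module, and *insv*, which encodes a BEN domain corepressor that binds Su(H), had reproducible peaks of both factors. At *skd*, Ey-Dam scored 6.60 in replicate 1 (95.5% lower) and had no peak at an FDR under 0.01 in replicate 2. The Su(H)-Dam scores there were 3.43 and 2.34 (63.1% and 17.7% lower). *nej*, the CBP acetyltransferase gene, scored 5.16 and 4.20 for Ey-Dam (51.0% and 40.2% lower) and had no Su(H) peak at an FDR under 0.01. *Smr*, a corepressor gene, scored 5.37 and 4.08 for Ey-Dam, and its Su(H)-Dam scores of 2.66 and 2.51 (20.1% and 25.8% lower) were not accompanied by a reproducible Su(H) peak. At *insv* the Ey-Dam scores were 5.84 and 4.11 and the Su(H)-Dam scores 3.95 and 2.99. *CtBP*, *kto* and *ebi* had no peak in any list. A reproducible Ey peak lay at 5.54% of all annotated genes, so the lack of one at *Su(H)*, *H* and *mam* is near the background.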

How the data were processed

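Reads of 6 libraries were aligned by the authors to dm6 with Bowtie2 and turned with damidseq_pipeline into log2 ratios over Dam alone per GATC fragment. Peaks were called by the authors with find_peaks, and the deposited peak score and IDR score were used unchanged. The score was used to place a peak within its list. Genes came from Ensembl release 115 without transposable elements, on 6 chromosome arms. A gene was counted when a peak lay within 1000 bp, the distance of the study. Peaks overlapped when they shared 1 bp. The assignment was tested on simulated peaks. Python 3.11.15, numpy 2.4.6, pandas 2.3.3 and matplotlib 3.10.9 were used.

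The members and the list of 26 other pathway genes were chosen with earlier results of these data known. All members were named with every peak. Pathway genes were named where they had a reproducible peak (*CtBP*, *kto*, *ebi* and the protease Tace were named after their values were seen), as were genes sharing a member's reproducible peak and the gene most like a member in all 4 replicate lists. Alternatives were distances of 0 and 5000 bp, replicate lists, stricter lists, an overlap of 50% and protein-coding genes alone. The 3 deposited lists of overlapping peaks were not used. Read counts and log2 profiles were not used here, so the depth behind a peak is unknown and no counting error is given.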

Additional observations from a re-analysis of the deposited data

How the results depend on the processing

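No paired analysis was possible because the values are counts from peak lists and no test was run. With peaks at an FDR under 0.01 in both replicates in place of the reproducible lists, 5 members in place of 3 had Su(H) peaks, and 1 in place of 2 had peaks of both factors, *neur*, a modulator. The stricter set of reproducible peaks found at that FDR in both replicates also left 1 member, a modulator, with both. Leaving out a replicate gave 5 members with Su(H) peaks either way and 1 to 2 with both, all modulators. A distance of 5000 bp gave 1 nuclear complex gene, *gro*, with both factors and 4 members with Ey peaks in both replicates. A distance of 0 bp left 3 members with Su(H) peaks in both replicates. Among the peaks at or above the median score of each list, 1 member had Ey peaks and 2 had Su(H) peaks in both replicates. Members with Ey peaks numbered 3 in the reproducible list and 2 to 4 under the other settings, as *bib* dropped out or *gro* came in. Shared peaks numbered 4 or 5. Consensus densities ran from 0.387 to 0.560 per kb in the Ey lists and from 0.563 to 0.617 per kb in the Su(H) lists. Without the *Su(H)* gene, an alternative chosen after seeing the data, 4 members had Su(H) peaks in both replicates. With 2 replicates for each factor and GATC fragments of unequal length, neither the spread of a score nor the place of a peak is known more closely.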
